A study of Homo sapiens with 2 samples.

Results

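The genes described are those that the 3' expression arrays of AsPC-1 cells read as higher or lower through every one of their usable probe sets, a probe set being the group of short DNA probes that reads 1 stretch of a transcript. A gene was taken if it had at least 2 single-gene probe sets with an intensity of at least 100 on both arrays, the signal floor, and if all of these differed by at least 1.4-fold in the same direction. Of 19775 genes named on the array, 5168 had at least 2 such probe sets, and 40 (0.774%) met the rule. Of these, 19 genes were higher and 21 genes were lower on the array labelled PGR siRNA. That is 0.368% and 0.406% of the 5168 genes. The genes were thus chosen by these intensities themselves, so the size of the differences and their direction are a description and carry no test. Single probe sets of the 5168 genes were past 1.4-fold higher in 3.71% and lower in 5.55%.

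AsPC-1 is a human pancreatic ductal adenocarcinoma (PDAC) cell line. The study asked how the progestin receptor, encoded by PGR, acts in PDAC cells. The 2 arrays set cells given siRNA against PGR beside cells of the same line given control siRNA. Any other difference between these cultures could not be told apart from the siRNA. There was 1 array per condition, without replicates, so that no spread between cultures, no standard error and no p-value can be given, and precision is limited by having a single pair of arrays. The culture medium is DMEM by the labels and RPMI for this line by the methods. PGR itself read 73.3 and 4.80 on the array labelled PGR siRNA, against 16.1 and 1.53 on the array labelled control. All 4 values lay under the signal floor and their order went against the labels, so each array is called by its label, as the si-PGR-labelled or the control-labelled array, and every direction rests on those labels. After 2% of the values were trimmed from either end, the arrays had the same mean of 500.1. Of 8 epithelial and ductal tumour markers, 7 were past the floor on both arrays, as was 1 of 5 fibroblast markers, and none was among the 4 leukocyte, the 3 endothelial and the 1 acinar marker read on the array.

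The progestin receptor is a nuclear receptor that, with progesterone bound, attaches to DNA and changes the transcription of nearby genes. In epithelial cells it is best known from the uterus and breast. Aldo-keto reductases of the AKR1C family reduce steroids, progesterone among them, and in many tumour cells they are also targets of NRF2, the factor of the oxidative stress response. The probe sets of a gene are separate readings of its transcripts, although they may lie close together or share target sequence, and their positions were not analysed here.

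The siRNAs of the study, printed because they define the labels of the arrays, have the following guide strands from 5′ to 3′, with the seed, bases 2 to 8, in capitals. Both are 21 bases long, and the sources do not say which was used for the arrays.
si-PGR-1: uUGCCUCAaaccaauugcctt
si-PGR-2: uCUUGGGUaauugugcagctt

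Promoters of 5 of the 40 genes are shown as examples, chosen after the values were seen. AKR1C1 and AKR1C2 are neighbours that were higher together, H2BC5 is the histone gene of the set, and CTH and MEX3C are lower genes read brightly. Each window runs from 250 bases before to 50 bases after the RefSeq start site on GRCh38.p14, and CCAAT boxes (CCAAT or its reverse ATTGG) are in capitals, as are TATA boxes (TATAAA or its reverse TTTATA) in H2BC5. The windows lie at chr10:4963165-4963464 (plus strand) for AKR1C1, chr10:5003808-5004107 (minus strand) for AKR1C2, chr6:26157871-26158170 (plus strand) for H2BC5, chr1:70411018-70411317 (plus strand) for CTH and chr18:51197632-51197931 (minus strand) for MEX3C.
AKR1C1: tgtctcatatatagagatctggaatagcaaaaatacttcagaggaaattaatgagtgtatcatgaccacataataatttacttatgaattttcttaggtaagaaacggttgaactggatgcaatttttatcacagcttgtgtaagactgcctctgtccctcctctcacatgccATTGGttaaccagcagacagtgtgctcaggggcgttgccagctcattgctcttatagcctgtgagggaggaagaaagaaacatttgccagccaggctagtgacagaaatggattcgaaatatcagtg
AKR1C2: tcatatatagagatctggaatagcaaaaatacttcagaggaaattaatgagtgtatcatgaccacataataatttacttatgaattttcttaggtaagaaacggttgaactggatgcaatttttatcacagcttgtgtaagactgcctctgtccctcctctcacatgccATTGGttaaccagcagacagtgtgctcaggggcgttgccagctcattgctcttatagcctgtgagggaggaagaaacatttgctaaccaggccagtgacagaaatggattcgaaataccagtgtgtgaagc
H2BC5: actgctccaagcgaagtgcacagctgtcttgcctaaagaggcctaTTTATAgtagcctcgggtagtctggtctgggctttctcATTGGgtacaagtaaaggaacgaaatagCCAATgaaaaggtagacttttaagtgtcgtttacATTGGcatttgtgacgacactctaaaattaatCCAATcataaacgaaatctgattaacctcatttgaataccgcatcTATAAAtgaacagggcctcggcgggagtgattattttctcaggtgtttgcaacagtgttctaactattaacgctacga
CTH: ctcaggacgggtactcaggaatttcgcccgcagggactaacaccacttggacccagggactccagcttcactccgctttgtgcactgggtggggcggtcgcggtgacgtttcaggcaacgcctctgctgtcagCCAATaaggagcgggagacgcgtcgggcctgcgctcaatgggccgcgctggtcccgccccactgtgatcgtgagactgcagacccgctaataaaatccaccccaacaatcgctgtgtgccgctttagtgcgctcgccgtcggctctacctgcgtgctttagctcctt
MEX3C: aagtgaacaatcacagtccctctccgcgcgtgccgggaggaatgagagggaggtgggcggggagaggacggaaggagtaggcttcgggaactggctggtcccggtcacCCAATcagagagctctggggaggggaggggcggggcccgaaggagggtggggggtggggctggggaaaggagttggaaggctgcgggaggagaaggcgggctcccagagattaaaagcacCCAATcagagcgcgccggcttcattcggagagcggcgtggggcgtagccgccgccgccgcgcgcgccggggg
The windows of AKR1C1 and AKR1C2 were identical at 288 of 308 aligned columns (93.5%), and each held 1 CCAAT box on the reverse strand, 77 bases before the start site in AKR1C1 and 81 bases before it in AKR1C2. H2BC5 held a TATA box 28 bases before its start site, another on the reverse strand 205 bases before it, and 4 CCAAT boxes. Histone promoters are known for a TATA box near the start site with CCAAT boxes before it. CTH held 1 CCAAT box and MEX3C held 2.

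RefSeq promoter windows were matched for 33 of the 40 genes, and several genes have more than 1 window. The progesterone and glucocorticoid response element (searched on both strands as the full palindrome) was in 0 of 18 windows of higher genes and in 0 of 26 windows of lower genes, beside 0.39% of all 35116 windows. The shorter hexamer TGTTCT, found on both strands as well, was in 11.1% of the windows of higher genes, both of H2BC5, and 3.85% of those of lower genes, against 14.8% of all. CCAAT boxes were in 61.1% of the windows of higher genes (9 of 15 genes) and 46.2% of those of lower genes (9 of 18 genes), against 34.6% of all (10846 of 27305 genes). The antioxidant response element core, TGACNNNGC, was in 5.56% of the windows of higher genes and 23.1% of those of lower genes, against 13.3% of all. By gene these were 1 of 15 higher and 3 of 18 lower genes, against 4384 of 27305 of all, so that by gene the share of the lower genes was close to that of all genes. Neither AKR1C window held it. TATAAA was in 11.1% of the windows of higher genes, again both of H2BC5, and 7.69% of those of lower genes, against 11.5% of all, and the E-box CACGTG was in 11.1% of those of higher genes and in none of those of lower genes, against 7.26% of all. The median GC content was 64.3% for higher genes and 63.2% for lower genes, against 58.7% for all windows. All windows cover 27305 genes, whether or not the arrays read them. Shares among the 5168 genes that could meet the rule were not computed. A match is a description of the letters in these windows, not a site of binding.

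All 40 genes had exactly 2 usable probe sets. They made up 1.34% of the 2978 genes with 2 usable probe sets, and none came from the 2190 genes with 3 or more. Demanding a match from all probe sets is harder to meet with more of them, and it left few genes. By its brightest probe set alone a gene was at least 1.4-fold higher in 108 cases (2.09%) and lower in 135 (2.61%). For 19 of the 108 the rest were past 1.4-fold too, for 42 they had the same sign but were smaller, and for 47 at least 1 had the opposite sign or no difference. Of the 135 lower genes, the corresponding counts were 21, 61 and 53. Across the 5168 genes, the log2 difference of the brightest and that of the second brightest probe set had a Pearson r of 0.19 and the same sign in 57.8%. Both probe sets of a gene were read on the same pair of arrays, so r is a description and carries no p. The SD between probe sets of 1 gene was 0.26 on the log2 scale, beside 0.49, the log2 of the threshold.

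**Figure D1:**
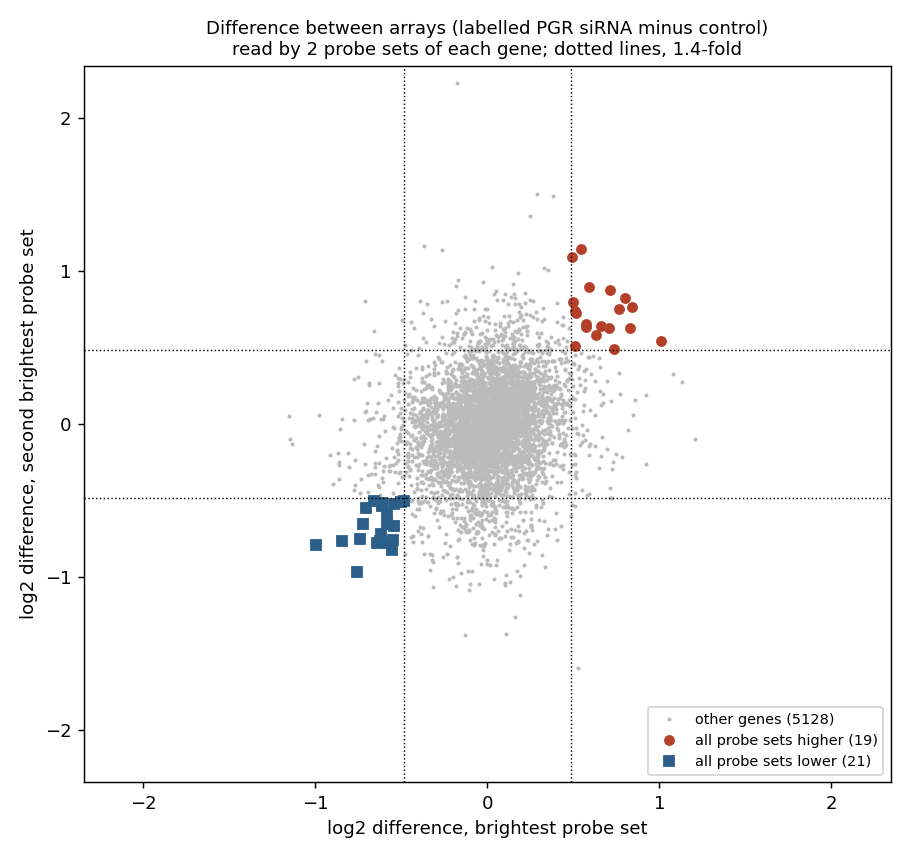
Log2 difference (array labelled PGR siRNA minus array labelled control) of the brightest probe set of each gene (x axis) against that of its second brightest (y axis), with 1 point for each of 5168 genes and dotted lines at 1.4-fold. The 19 higher genes lie in the upper right corner and the 21 lower genes in the lower left corner, and most genes past 1.4-fold on one axis lie within the lines on the other.

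The 40 genes were read at lower signal than genes with 2 or more usable probe sets in general. Of the 40, 24 (60.0%) had a lowest value under 200, against 36.5% of the 5168 genes, and 1.27% of the genes with a lowest value of 100 to 200 met the rule, against 0.548% at 200 to 500 and 0.427% at 500 or more. The SD of the log2 difference of single probe sets was 0.39 at a mean signal of 100 to 200 and 0.20 at 1000 or more. The part of this wider scatter in the choice of the dim genes was not tested. Probe sets marked _x_ by the array maker, which can also bind transcripts of other genes, were 13 of the 80 used (16.2%), against 10.1% of all probe sets of the 5168 genes. They were both probe sets of AKR1C1, AKR1C2 and H2BC5 among the higher genes and of CEP44, GSTM1 and PTCRA among the lower genes, and 1 of the pair of RNA45SN5. Of the 80, 50% were of none of the marked kinds _s_, _x_ and _a_, against 50.6% of all. Whether those of the _s_ and _a_ kinds read other transcripts too was not examined.

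**Figure D2:**
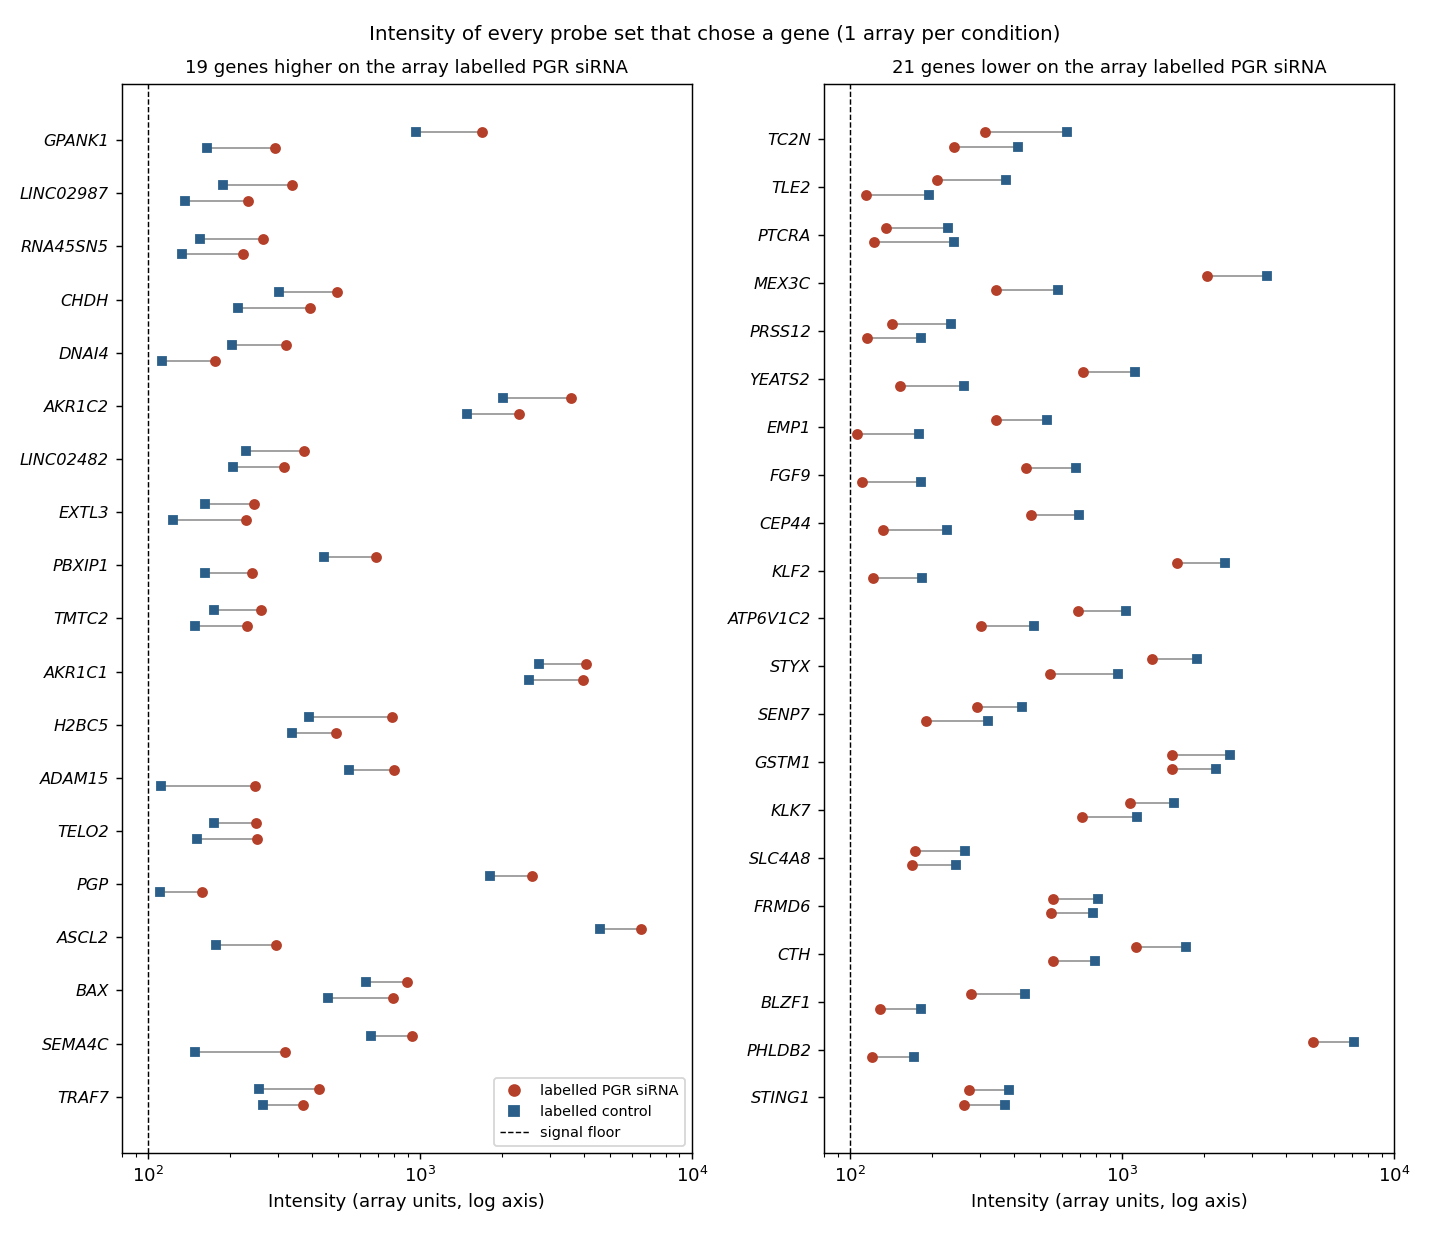
Intensity (log axis, array units) of the 2 probe sets of each gene on the array labelled PGR siRNA (circles) and on the array labelled control (squares), with a line joining the values of 1 probe set and the signal floor of 100 dashed. Genes run from the largest to the smallest weakest fold, and in 24 of 40 genes at least 1 value is under 200.

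Among the higher genes the weakest fold of a gene ranged from 1.403 to 1.74, with a median of 1.49. The median log2 difference, averaged over the probe sets of a gene, was 0.66, against -0.01 over all 5168 genes. None was 2-fold higher by both probe sets, and 3 had 1 probe set past 2-fold. By RefSeq type, 16 were protein coding, 2 were long non-coding RNAs and 1 was a ribosomal RNA precursor.

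A pair of steroid reductases was brightly read by both probe sets of each gene. AKR1C1, which reduces progesterone to a weaker progestin, read 4073 and 3982 on the si-PGR-labelled array against 2740.1 and 2527 on the control-labelled array, 1.49-fold and 1.58-fold. AKR1C2, which acts mainly on dihydrotestosterone, read 3598 and 2307 on the si-PGR-labelled array against 2022 and 1493 on the control-labelled array, 1.78-fold and 1.55-fold. The coding sequences of both enzymes are nearly the same, and all 4 probe sets are of the _x_ kind, so the reads of each gene cannot be told apart fully. Their relatives lay on the same side. AKR1C3, which has its own probe set, read 5618 on the si-PGR-labelled array against 4077 on the control-labelled array, a log2 difference of 0.46. AKR1B10, a retinal reductase, read 406 on the si-PGR-labelled array against 284 on the control-labelled array, a log2 difference of 0.51. With 1 usable probe set each, neither could meet the rule.

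H2BC5 encodes a histone H2B, the core nucleosome protein, and its probe sets read 791 and 492 on the si-PGR-labelled array against 392 and 338 on the control-labelled array, 2.02-fold and 1.46-fold. Of 16 H2B genes listed, 5 had a usable probe set, among them H2BC5, which the rule chose. Past 1.4-fold higher were 3.71% of single probe sets of the 5168 genes and 1.1% of those genes by the mean. All 5 H2B genes were past it by the mean of their probe sets, with log2 differences between 0.78 and 1.10. The brightest was H2BC12, with 3696 on the si-PGR-labelled array against 1718 on the control-labelled array. H2BC6, H2BC9 and H2BC21 had differences of 0.82, 1.07 and 0.95. The H2B coding sequences are much alike, and the probe sets of H2BC6 and H2BC9 are of the _x_ kind as well, so these 5 readings are not independent.

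Enzymes of other kinds were also among the higher genes. CHDH, the mitochondrial dehydrogenase that turns choline into betaine aldehyde, read 495 and 394 on the si-PGR-labelled array against 302 and 215 on the control-labelled array, 1.64-fold and 1.83-fold. A pair of further CHDH probe sets passed the floor only on the si-PGR-labelled array. They read 209 and 158 there, against 78.6 and 76.9 on the control-labelled array. Passing only there fixes their direction as higher, so it adds no support. Another 3 CHDH probe sets that were under the floor on both arrays read lower. PGP, a phosphatase that removes phosphoglycolate, read 2577 and 157 on the si-PGR-labelled array against 1809.9 and 110.4 on the control-labelled array, 1.42-fold and 1.43-fold, so that the bright and the dim probe set gave nearly the same ratio. EXTL3, a glycosyltransferase of heparan sulfate synthesis, read 244 and 229 on the si-PGR-labelled array against 162 and 123 on the control-labelled array, 1.51-fold and 1.86-fold. Its relatives EXT1, EXT2 and EXTL2, the other exostosins with usable probe sets, had mean log2 differences of 0.09 to 0.35, all short of 1.4-fold. TMTC2, an endoplasmic reticulum protein of the family that adds mannose to cadherins, read 261 and 231 on the si-PGR-labelled array against 175 and 149 on the control-labelled array, 1.49-fold and 1.55-fold.

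Several higher genes encode proteins of the cell surface and of signalling. ADAM15, a membrane metalloproteinase with a disintegrin domain, read 800.2 and 246 on the si-PGR-labelled array against 549 and 112 on the control-labelled array, 1.46-fold and 2.21-fold. SEMA4C, a membrane semaphorin that binds plexin-B2, read 932 and 318 on the si-PGR-labelled array against 662 and 149 on the control-labelled array, 1.41-fold and 2.13-fold. In both genes the dimmer probe set had the larger fold. PLXNB2, the receptor of SEMA4C, read 2004 on the si-PGR-labelled array against 2097 on the control-labelled array, and the other class 4 semaphorins with usable probe sets were not past 1.4-fold by their mean. TRAF7, a ubiquitin ligase of the TRAF family, read 424 and 371 on the si-PGR-labelled array against 255 and 264 on the control-labelled array, 1.66-fold and 1.403-fold. PBXIP1, which binds PBX homeodomain factors and oestrogen receptors, read 686 and 242 on the si-PGR-labelled array against 443 and 161 on the control-labelled array, 1.55-fold and 1.498-fold.

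Of the regulators of survival and transcription, BAX, the pro-apoptotic protein that opens the outer mitochondrial membrane, read 895 and 797 on the si-PGR-labelled array against 635 and 459 on the control-labelled array, 1.41-fold and 1.74-fold. It was the only one of 11 BCL2 family genes with usable probe sets whose mean passed 1.4-fold, and the family median was 0.04 on the log2 scale. MCL1, which opposes BAX, had 6 usable probe sets between -0.11 and 0.19. ASCL2, a basic helix-loop-helix factor known from intestinal stem cells, had the brightest single reading of the higher genes. It read 6514 and 295 on the si-PGR-labelled array against 4585 and 177 on the control-labelled array, 1.42-fold and 1.67-fold. TELO2, a cochaperone that stabilises the large kinases mTOR, ATM and ATR, read 249.7 and 252 on the si-PGR-labelled array against 175 and 152 on the control-labelled array, 1.43-fold and 1.66-fold. The 7 other genes of its complex and of these kinases with usable probe sets did not pass 1.4-fold by their mean.

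The gene with the largest weakest fold was GPANK1, a protein with a G-patch and ankyrin repeats encoded in the major histocompatibility region. It read 1690.0 and 292 on the si-PGR-labelled array against 969.9 and 165 on the control-labelled array, 1.74-fold and 1.77-fold. DNAI4, an intermediate chain of the dynein motor of cilia, read 321 and 176 on the si-PGR-labelled array against 203 and 113 on the control-labelled array, 1.58-fold and 1.56-fold. A further pair of DNAI4 probe sets with 1 value past the floor read 92.3 and 104 on the si-PGR-labelled array against 103 and 90.3 on the control-labelled array, and so did not share the difference.

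Non-coding transcripts completed the higher genes. LINC02987 read 338 and 233 on the si-PGR-labelled array against 189 and 137 on the control-labelled array, 1.79-fold and 1.70-fold. LINC02482 read 374 and 315 on the si-PGR-labelled array against 229.7 and 204 on the control-labelled array, 1.63-fold and 1.54-fold. No function is assigned to either here. RNA45SN5, the precursor of the large ribosomal RNAs, read 265 and 224 on the si-PGR-labelled array against 156 and 133 on the control-labelled array, 1.70-fold and 1.68-fold. The array's own control probe sets for the mature ribosomal RNAs were nearer to 1, at 1.09-fold to 1.32-fold for the small subunit (3 probe sets) and 1.18-fold to 1.38-fold for the large subunit (2 probe sets). The part of unequal carry-over of ribosomal RNA into the labelled material was not tested.

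Among the lower genes the weakest fold ranged from 1.402 to 1.73, with a median of 1.495, and none had a probe set past 2-fold. The median of their mean log2 differences was -0.65. All 21 were protein coding.

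Regulators of transcription, chromatin and RNA stood among them. KLF2, a zinc finger factor induced by shear stress in endothelium and by MEK5 and ERK5 signalling, read 1598 and 122 on the si-PGR-labelled array against 2393 and 184 on the control-labelled array, 1.497-fold and 1.51-fold lower. Of 11 KLF genes listed, all with usable probe sets, 10 had a negative mean, KLF2 among them. KLF3, KLF7 and KLF12 were among the 10 although their probe sets had both signs, as in KLF12 at -0.47 to 0.40. The median of the 11 was -0.19, against -0.01 over the 5168 genes, among which a negative mean is thus common as well. By the mean 2 passed 1.4-fold lower, KLF2, which the rule chose, and KLF5, against 1.57% of the 5168 genes. KLF5 missed the rule because its probe sets differed, at -0.13 and -1.38. TLE2, a Groucho corepressor that binds the factors of Wnt and Notch signalling, read 209 and 114 on the si-PGR-labelled array against 375 and 194 on the control-labelled array, 1.80-fold and 1.70-fold lower. The other 4 TLE genes did not pass 1.4-fold by their mean. YEATS2, the acetyl-lysine reader of the ATAC acetyltransferase complex, read 717 and 152 on the si-PGR-labelled array against 1119 and 261 on the control-labelled array, 1.56-fold and 1.72-fold lower. It was the only one of 10 ATAC genes with usable probe sets past 1.4-fold by the mean, while 1 of the pair of probe sets of SGF29 was at 0.59 on the log2 scale. MEX3C, an RNA-binding ubiquitin ligase, read 2051 and 344 on the si-PGR-labelled array against 3425 and 580.4 on the control-labelled array, 1.67-fold and 1.69-fold lower, so that its bright and its dim probe set gave nearly the same ratio. SENP7, a protease that takes SUMO chains apart, read 293 and 189 on the si-PGR-labelled array against 429 and 320.5 on the control-labelled array, 1.46-fold and 1.69-fold lower.

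Metabolic and transport genes were a second group. GSTM1, a glutathione transferase that many people lack through a common deletion, read 1523 and 1522 on the si-PGR-labelled array against 2485 and 2224 on the control-labelled array, 1.63-fold and 1.46-fold lower. GSTM2 read 1085 on the si-PGR-labelled array against 1858 on the control-labelled array, a log2 difference of -0.78 by its single usable probe set, and GSTM4 was -0.38 by the mean of its pair, whereas GSTM3 was at 0.00. The sequences of the GSTM genes are close, both GSTM1 probe sets are of the _x_ kind, and reads of GSTM1, GSTM2 and GSTM4 may be shared. CTH, cystathionine gamma-lyase, the last enzyme on the way to cysteine from methionine, read 1121 and 559 on the si-PGR-labelled array against 1713 and 798 on the control-labelled array, 1.53-fold and 1.43-fold lower. ATP6V1C2, a tissue-restricted C subunit of the vacuolar proton pump, read 689.8 and 302 on the si-PGR-labelled array against 1032 and 476 on the control-labelled array, 1.495-fold and 1.58-fold lower. Its widely expressed counterpart ATP6V1C1 had 3 probe sets between -0.10 and 0.13, and the other V1 subunits with usable probe sets had mean differences of -0.06 to 0.26. SLC4A8, a sodium-driven chloride and bicarbonate exchanger, read 173 and 169 on the si-PGR-labelled array against 265 and 245 on the control-labelled array, 1.53-fold and 1.45-fold lower.

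Secreted and membrane proteins were a further group. KLK7, a chymotrypsin-like serine protease, read 1068 and 713 on the si-PGR-labelled array against 1557 and 1132 on the control-labelled array, 1.46-fold and 1.59-fold lower. The other kallikreins with usable probe sets ran both ways, with KLK10 at -0.39 and KLK12 at 0.44. PRSS12, neurotrypsin, which cleaves agrin, read 142 and 116 on the si-PGR-labelled array against 234 and 182 on the control-labelled array, 1.65-fold and 1.57-fold lower. FGF9, a secreted fibroblast growth factor, read 442 and 111 on the si-PGR-labelled array against 678 and 182 on the control-labelled array, 1.53-fold and 1.65-fold lower. EMP1, a small membrane protein with 4 spans, read 345 and 106 on the si-PGR-labelled array against 531 and 179.7 on the control-labelled array, 1.54-fold and 1.70-fold lower. STING1, the adaptor of the cytosolic DNA response, was nearest to the threshold of the lower genes, with 273 and 262 on the si-PGR-labelled array against 383 and 372 on the control-labelled array, 1.402-fold and 1.42-fold lower. TBK1 and IRF3, which act after it, were at -0.05 and -0.01, and IKBKE, a kinase related to TBK1, had a mean of 0.40.

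Proteins of the cell cortex, the Golgi apparatus and the centrosome, and signalling proteins, came next. PHLDB2, which anchors microtubule ends at the cortex near focal adhesions, was the brightest lower gene, with 5048 and 121 on the si-PGR-labelled array against 7154 and 172 on the control-labelled array, 1.42-fold lower by both. FRMD6, a FERM protein upstream of the Hippo kinases, read 559 and 547 on the si-PGR-labelled array against 813 and 785 on the control-labelled array, 1.46-fold and 1.44-fold lower. BLZF1, a golgin of the Golgi stack, read 278 and 129 on the si-PGR-labelled array against 440.1 and 183 on the control-labelled array, 1.58-fold and 1.42-fold lower. The centrosome protein CEP44 read 461 and 132 on the si-PGR-labelled array against 694 and 227 on the control-labelled array, 1.51-fold and 1.72-fold lower. STYX, a phosphatase relative without catalytic activity, read 1289 and 543 on the si-PGR-labelled array against 1893 and 962 on the control-labelled array, 1.47-fold and 1.77-fold lower. A further pair of STYX probe sets passed the floor only on the control-labelled array. They read 96.0 and 88.5 on the si-PGR-labelled array against 144 and 153 on the control-labelled array. Passing only there fixes their direction as lower, so it adds no support. TC2N, a protein with tandem C2 domains, had the largest weakest fold of the lower genes, with 314 and 240.0 on the si-PGR-labelled array against 626 and 416 on the control-labelled array, 1.99-fold and 1.73-fold lower.

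PTCRA, the invariant chain of the pre-T-cell receptor, is a gene of developing T cells. Its probe sets read 135 and 123 on the si-PGR-labelled array against 229 and 241 on the control-labelled array, 1.69-fold and 1.96-fold lower. Both are of the _x_ kind, another PTCRA probe set read 8.85 on the si-PGR-labelled array and 3.19 on the control-labelled array, and none of the 4 leukocyte markers read here reached the floor on both arrays, with a summed intensity of 205 on the si-PGR-labelled array and 328 on the control-labelled array. Which transcript these probe sets bound was not tested.

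The 40 genes had 34 other probe sets that the floor left out. For the higher genes, 7 of 15 had the same direction, and for the lower genes 11 of 19 did. Among those with 1 array past the floor, the counts were 3 of 4 and 4 of 4, though the passing array sets the direction. Among those under the floor on both arrays they were 4 of 11 and 7 of 15, at values where ratios scatter widely.

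**Figure D3:**
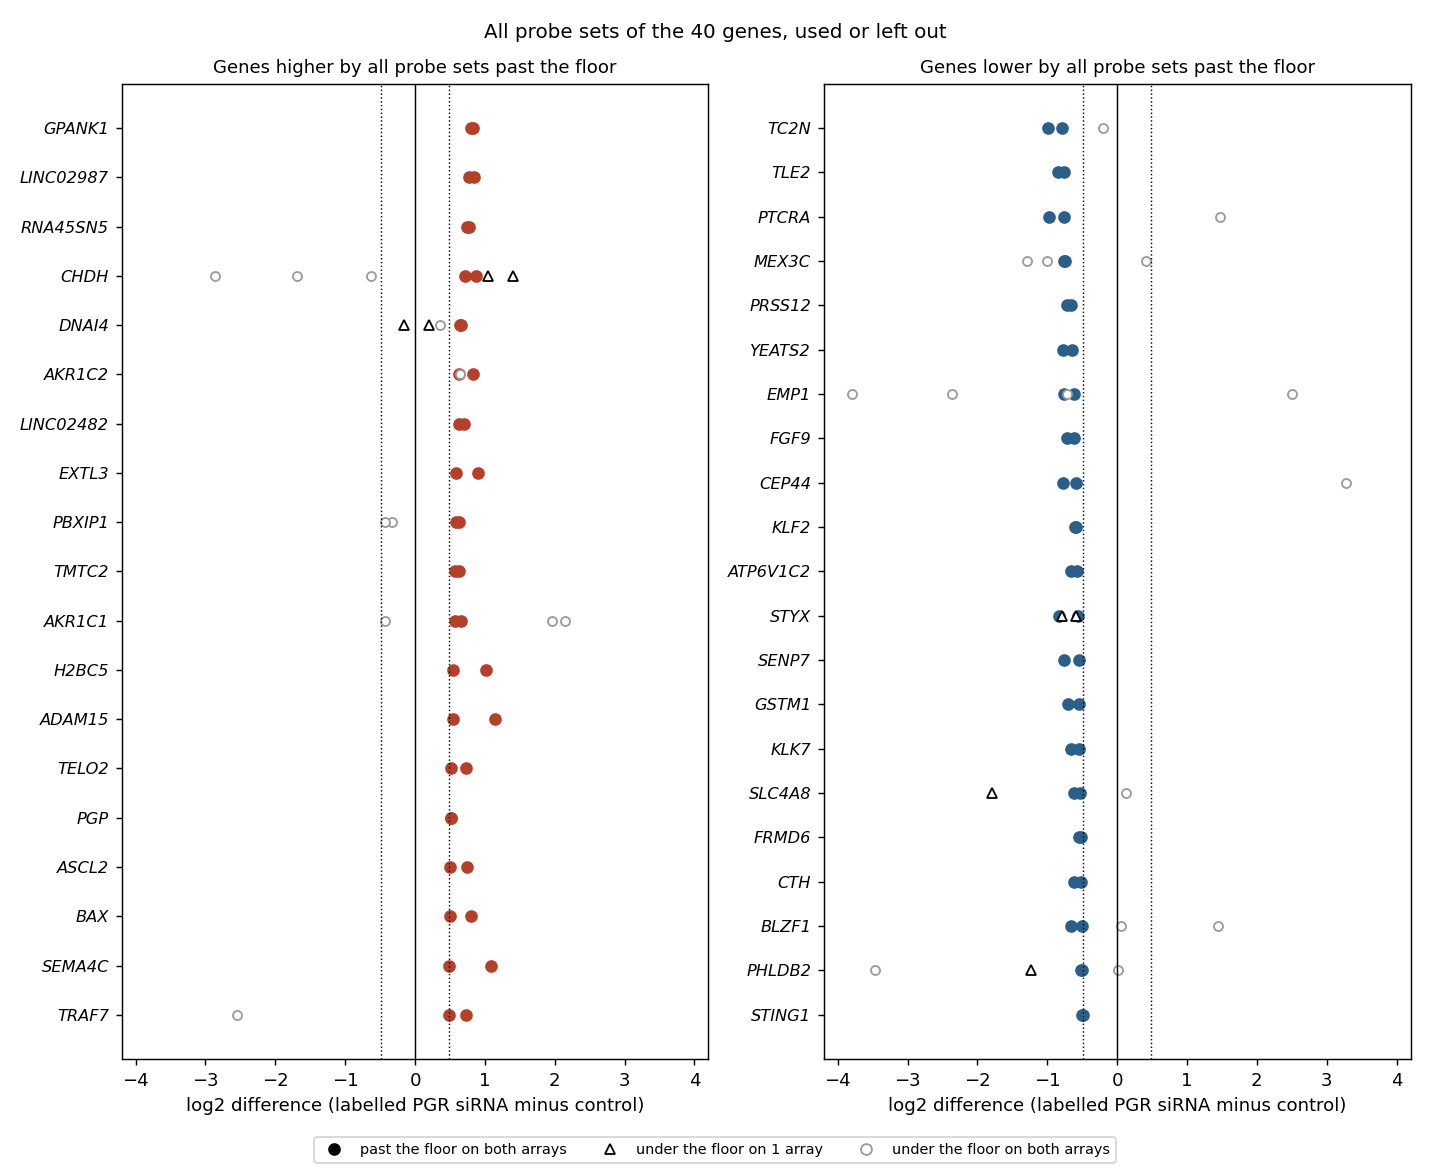
Log2 difference (array labelled PGR siRNA minus array labelled control, x axis) of every probe set of the 40 genes, filled where both arrays were past the floor, as open triangles where 1 array was under it and as open circles where both were. Dotted lines mark 1.4-fold, and the open circles lie on both sides of 0.

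The threshold passed through a continuous range. Just inside it among the higher genes were BAX, SEMA4C and TRAF7, with weakest folds of 1.41, 1.41 and 1.403. Just outside were NBR2 at 1.39, NOLC1 at 1.38 and AGR2 at 1.38. NOLC1, a nucleolar protein, was read by 3 probe sets, with 6004, 2676 and 686 on the si-PGR-labelled array against 4119.8, 1937 and 479 on the control-labelled array. AGR2, a protein disulfide isomerase of mucus-secreting epithelium, read 27208 and 2171 on the si-PGR-labelled array against 19752 and 1493 on the control-labelled array. For the lower genes BLZF1, PHLDB2 and STING1 lay just inside, with weakest folds of 1.42, 1.42 and 1.402. CHI3L1, GPRC5A and CFL2 lay just outside, at 1.399, 1.36 and 1.36. CFL2, a muscle-type cofilin, was read by 3 probe sets, with 1187, 900.3 and 663 on the si-PGR-labelled array against 1986, 1234 and 901 on the control-labelled array.

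Some of the 40 genes are neighbours in the RefSeq annotation. AKR1C1 and AKR1C2 are adjacent on chromosome 10. TELO2, PGP and TRAF7 lie on chromosome 16 and were all higher, with 3 protein-coding genes between PGP and TRAF7 and 37 between TELO2 and PGP. Of the 23 genes between TELO2 and PGP with usable probe sets, 2 passed 1.4-fold higher by the mean, of which TRAF7 itself is 1, none passed lower, and the median was 0.04. PBXIP1 and ADAM15, both higher, have 8 protein-coding genes between them on chromosome 1, and FRMD6 and STYX, both lower, have 9 between them on chromosome 14. The 5 genes with usable probe sets between PBXIP1 and ADAM15 had a median of 0.14 and none passed 1.4-fold by the mean. Between FRMD6 and STYX there were 5 as well, with a median of -0.08, and 1 of them passed 1.4-fold lower. SENP7 and PHLDB2, both lower, have 30 protein-coding genes between them on chromosome 3. DNAI4 and CTH went opposite ways, higher and lower, with 16 protein-coding genes between them on chromosome 1.

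**Figure D4:**
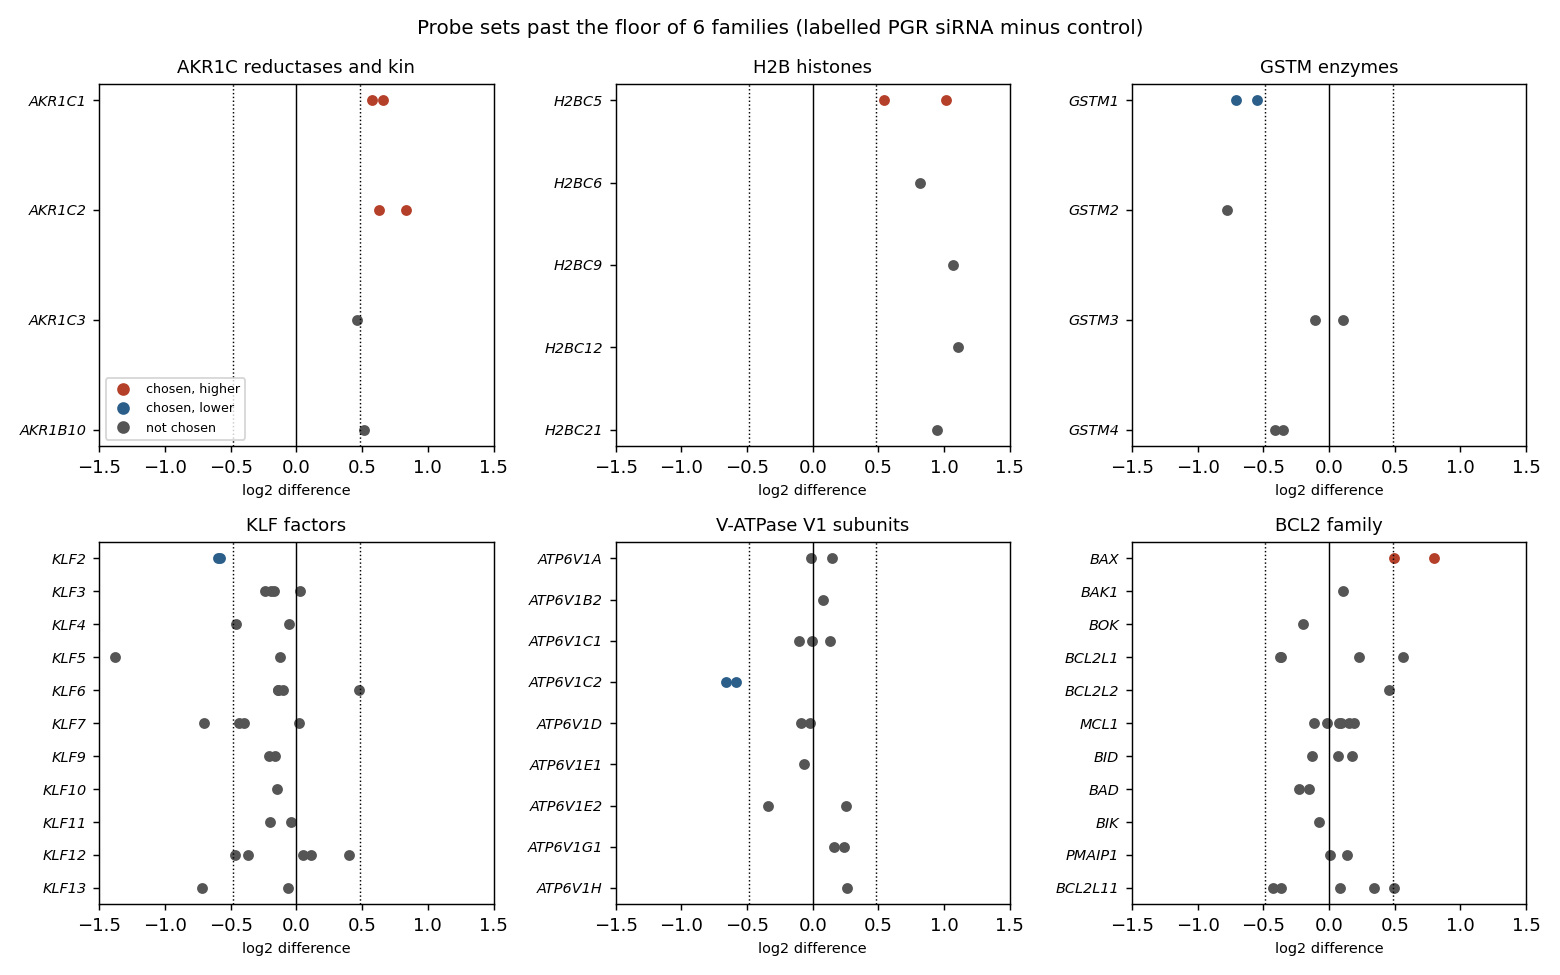
Log2 difference (array labelled PGR siRNA minus array labelled control, x axis) of every usable probe set of 6 families, with genes that met the rule in colour, other genes in dark grey and dotted lines at 1.4-fold. All 5 H2B genes lie to the right, and the V1 subunits other than ATP6V1C2 lie around 0.

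Set against 19 lists of pathway genes, 6 of the 40 genes were in 5 lists and 34 were in none. The lists are short beside the 0.774% of all genes that met the rule, so counts of 0 or 1 in a list are near that background and say nothing about the list. NRF2 targets held 2 of them, AKR1C1 and AKR1C2, of 14 genes with at least 2 usable probe sets. In that list 11 of 14 genes (78.6%) had all probe sets above 0 and none had all below, against 23.6% above and 21.5% below among all 5168 genes, and the median was 0.17. The 11 include AKR1C1 and AKR1C2, which the rule chose as higher and whose reads may be shared. TKT, ME1 and NQO1 were among the 11, at mean log2 differences of 0.44, 0.26 and 0.22, short of the threshold. H2BC5 was the only replication-dependent histone gene with 2 usable probe sets. KLF2 was 1 of 19 immediate-early genes, a list with 7 genes all below 0, KLF2 among them, and none all above. CTH was 1 of 16 genes of the ATF4 amino acid response, whose median was 0.06, with 8 genes all above 0 and 3, CTH among them, all below. BAX was 1 of 14 genes of the BCL2 family and of p53 targets, with a median of 0.03. The other 14 lists held none of the 40 genes. The list of macropinocytosis and endocytosis, the process the study was about, had 45 genes and a median of -0.01. In mitosis (0 of 21, median -0.17) 10 genes (47.6%) had all probe sets below 0. In endoplasmic reticulum protein folding (0 of 22, median 0.17) 14 genes (63.6%) had all above 0. Shorter lists had larger shares all below 0, with 57.1% of 7 cytokine and NF-kB genes, 53.8% of 13 junction and keratin genes and 50% of 6 interferon-stimulated genes. No gene of these lists had every probe set past the threshold, but single probe sets were past it, as in NEK2 of mitosis at -0.89.

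The choice of genes moved with the threshold and the floor more than with the scaling. At 1.5-fold 8 of the higher and 9 of the lower genes were left, and with a floor of 200 there were 7 and 9 of them. Under median centring, quantile normalization, loess and an added offset alike, 14 of the 19 higher and 18 of the 21 lower genes passed. ASCL2, PGP, SEMA4C, TELO2 and TRAF7, and BLZF1, PHLDB2 and STING1, failed at least 1 of these. RNA added to the samples as a standard was read as well. Of 19 probe sets for poly-A spikes, 5 were at least 1.4-fold higher and 1 was lower, and for the thr spike 4 of 5 passed, at 1.39-fold to 1.58-fold, so that this spike fell just short of the rule. The 6 for the dap spike were at 1.02-fold to 1.17-fold, and those for phe and lys ran both ways, from 0.67-fold to 1.45-fold. Of 18 probe sets for hybridisation spikes 1 passed, and their median ratio was 1.16. The amounts of the spikes added are not given in the sources used here, so the part of unequal amounts in these ratios was not tested.

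**Figure D5:**
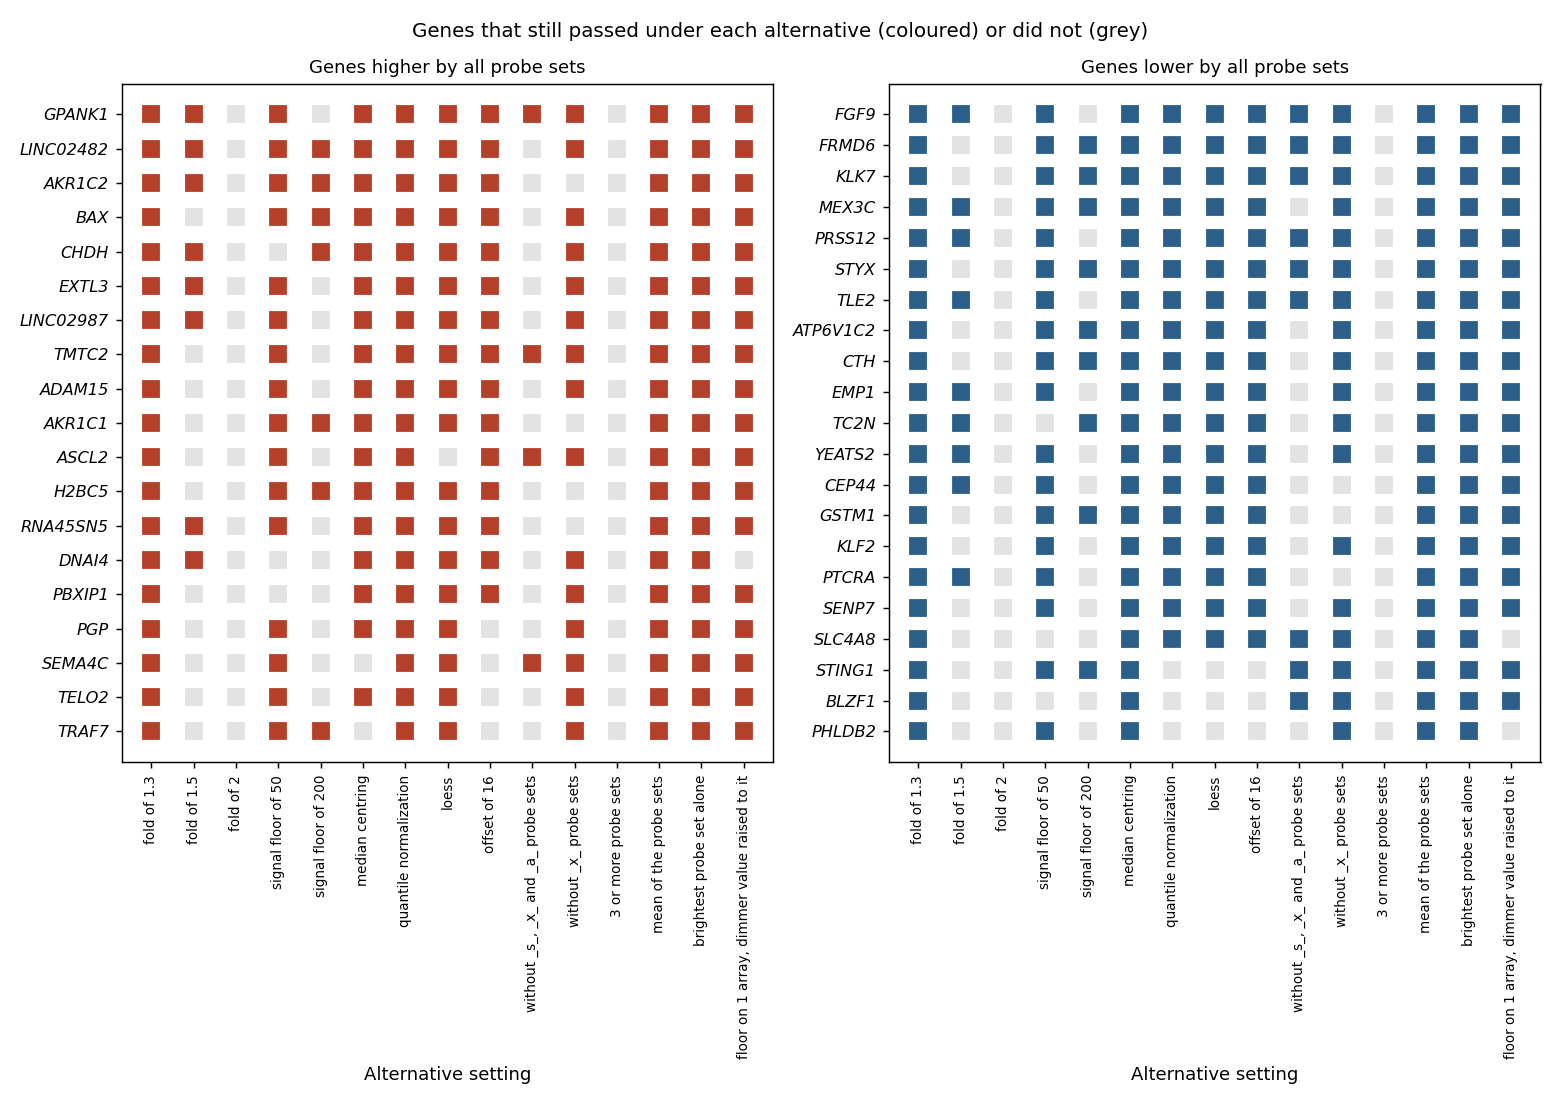
Genes (rows) that met the rule under each alternative setting (columns), coloured where they did and grey where they did not, with higher genes on the left and lower genes on the right. All 40 genes pass at 1.3-fold, by the mean of the probe sets and by the brightest probe set alone, none passes at 2-fold or with 3 or more probe sets, and 8 genes fail at least 1 of the 4 scalings.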

How the data were processed

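The authors labelled total RNA of AsPC-1 cells with biotin by a 3' in vitro transcription kit, hybridised 1 array per condition and deposited a linear intensity for each probe set of each array. The summary algorithm, background correction and scaling are not given in the sources used here. Of 54675 probe sets, 41097 had 1 gene symbol in the platform annotation, 1801 had several and 11777 had none, and only the first were used. Symbols were updated through gene identifiers to RefSeq (GRCh38.p14) for 41043 of them. Ratios were taken as the array labelled PGR siRNA over the array labelled control, without an offset, and the rule was applied to the 13824 probe sets of the 5168 genes with at least 2 probe sets at an intensity of 100 or more on both arrays. With 1 array per condition no test was run. Arrays have no read depth, and signal over background sets the precision.

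The 40 genes and the 19 lists were chosen with earlier results of these data known, and the families of related genes, the floor on 1 array and the promoters printed were chosen after the values of these genes were seen. The genes named are all 40, those nearest to the threshold on either side, their listed relatives and the members of lists. Promoter windows came from RefSeq, and siRNA sequences from the supplement of the study. Alternatives were folds of 1.3, 1.5 and 2, floors of 50 and 200, loess (span 0.7), median centring, normalization to common quantiles, an offset of 16, leaving out probe sets by kind, at least 3 probe sets, the mean and the brightest probe set. The code was checked on simulated data with known folds, at less noise than the SD between probe sets of a gene seen here. That check does not measure how the rule performs at the scatter of these arrays. Software was pandas 2.3.3 and numpy 2.4.6 for tables, statsmodels 0.14.6 for loess, scipy 1.17.1 for trimmed means, biopython 1.88 for alignment and matplotlib 3.10.9 for figures, under Python 3.11.15.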

Additional observations from a re-analysis of the deposited data

How the results depend on the processing

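The rule gave 19 higher and 21 lower genes. It gave 43 and 44 at 1.3-fold, 8 and 9 at 1.5-fold and 0 and 0 at 2-fold. With a floor of 200 it gave 7 and 10, and with a floor of 50 it gave 24 and 33, of which 16 and 18 were among the 40 genes. Without probe sets of the _s_, _x_ and _a_ kinds it gave 5 and 10, of which 4 and 9 were among the 40 genes. Among genes with 3 or more probe sets it gave 0 and 0. The mean of the probe sets gave 57 and 81 and the brightest probe set alone 108 and 135. Median centring (17 and 22), quantile normalization (20 and 18), loess (18 and 18), an offset of 16 (15 and 18) and leaving out _x_ probe sets (15 and 19) changed the counts by less than 1.5 times, as did a floor on 1 array, added after seeing the data (19 and 26). The median of all 5168 genes moved by at most 0.01 under the scalings. No paired analysis was possible because each condition has 1 array, and for the same reason no array could be left out. Dim signal limits the smaller values, as 24 of the 40 genes have a value under 200.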

Other observations

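Outside the 40 genes, a few genes with 3 usable probe sets had all of them on 1 side at 1.3-fold or more and so lay near the rule. LPIN1, a phosphatidate phosphatase of lipid synthesis, read 1673, 1463 and 367 on the si-PGR-labelled array against 1277, 1099.7 and 272 on the control-labelled array, at 1.31-fold to 1.35-fold. CLEC11A, a secreted growth factor with a C-type lectin domain, read 505, 210.6 and 146 on the si-PGR-labelled array against 369, 153 and 110.0 on the control-labelled array, at 1.33-fold to 1.38-fold. On the lower side MINDY2, a deubiquitinase, read 327, 267 and 151 on the si-PGR-labelled array against 439, 363 and 259 on the control-labelled array. DENND1B, an exchange factor for RAB35, read 1011, 456 and 280.2 on the si-PGR-labelled array against 1333, 653 and 456 on the control-labelled array. These were named after their values were seen. A probe set annotated to both AKR1C1 and AKR1C2, not used in the rule, read 59.0 on the si-PGR-labelled array against 17.9 on the control-labelled array, under the floor on both.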
